A study of Mus musculus with 9 samples.

Results

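The genes described here are those of the cell-surface TLRs and their coreceptors in mouse pDCs. They are *Tlr1*, *Tlr2*, *Tlr4*, *Tlr5* and *Tlr6*, the TLR-like receptor gene *Cd180*, and the coreceptor genes *Cd14*, *Ly96* and *Ly86*. These 9 genes were taken by symbol from the 52550 genes of the expression table of A/A replicate 1. Each symbol matched 1 row. The study sorted splenic pDCs from C57BL/6 mice as CD11c-intermediate SiglecH+ PDCA1+ cells and stimulated them with R848, which activates TLR7 and TLR8, at 10 μg/mL over 12 hours. The mice were WT (G/G), heterozygous (G/A) or homozygous (A/A) *Ncf1*-KI animals that carry an arginine-to-histidine change in NCF1, and all were described as females of 10 to 12 weeks. There were 9 samples, 3 of each genotype, all of them R848 treated. All values below come from A/A replicate 1. The remaining 8 libraries were not used here, so no genotype or treatment was compared, no value has a replicate error, and no test was run.

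TLRs are membrane receptors that recognise conserved microbial molecules and signal through adaptors such as MyD88. The surface TLRs bind mostly lipids and proteins of the microbial envelope. TLR4 binds lipopolysaccharide with MD-2 (*Ly96*) after CD14 has handed it over, TLR2 pairs with TLR1 or TLR6 on lipopeptides, and TLR5 binds flagellin. RP105 (*Cd180*) resembles TLR4 but lacks its signalling domain, and it is held at the surface by MD-1 (*Ly86*), a relative of MD-2. The endosomal TLRs bind nucleic acids for the most part, and pDCs are known for TLR7 and TLR9.

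The table held 31408298 counts, recovered from the deposited values as described in the processing section. A level is given as CPM, which is a count divided by that total and scaled to 1000000, with a Wilson 95% confidence interval. Where genes are compared with each other, the level is given per length as TPM, which is counts per kilobase of annotated exon scaled to 1000000 over all genes. The intervals cover counting error only. They rest on each count being 1 independent read, and the low values of the table put a limit on that. Of the protein-coding genes, 9618 were at 0, 43 were at a count of 1 and 116 were at a count of 4. Between 1 and 12 counts, 38.5% of the protein-coding genes were at a multiple of 4, against 25% in an even spread and 26.1% of the genes above 400 and up to 2000 counts. For that reason the ratios of neighbours in the order of the members, those within the known complexes, and those of *Tlr9* to *Tlr2* and *Tlr8* to *Tlr4* were also computed with the counts divided by 4, and a gene at 0 is described only as listed at 0. The library also went against the stated sex of the mice, since the Y-linked gene *Ddx3y* had 102 CPM and *Xist* was listed at 0. *Ncf1* had 1079 CPM, a level that does not show which allele was present.

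Sequences are shown first for the 2 genes of the most abundant receptor pair, *Ly86* and *Cd180*, for *Tlr2*, and for *Tlr5*, the member listed at 0. The promoters are RefSeq sequences of the GRCm38.p6 build, from 250 bases before to 50 bases after the start site, on the strand of the gene. *Ly86* is at chr13:37345095-37345394 (plus strand), *Cd180* at chr13:102693308-102693607 (plus strand), *Tlr2* at chr3:83841559-83841858 (minus strand) and *Tlr5* at chr1:182954538-182954837 (plus strand). Capitals mark matches to the motifs named after the sequences.
Ly86: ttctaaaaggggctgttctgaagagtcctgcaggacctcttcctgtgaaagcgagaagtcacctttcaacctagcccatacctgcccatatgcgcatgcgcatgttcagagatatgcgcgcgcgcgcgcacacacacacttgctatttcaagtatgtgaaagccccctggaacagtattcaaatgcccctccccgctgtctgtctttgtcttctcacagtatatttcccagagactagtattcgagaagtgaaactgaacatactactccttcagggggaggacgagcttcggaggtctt
Cd180: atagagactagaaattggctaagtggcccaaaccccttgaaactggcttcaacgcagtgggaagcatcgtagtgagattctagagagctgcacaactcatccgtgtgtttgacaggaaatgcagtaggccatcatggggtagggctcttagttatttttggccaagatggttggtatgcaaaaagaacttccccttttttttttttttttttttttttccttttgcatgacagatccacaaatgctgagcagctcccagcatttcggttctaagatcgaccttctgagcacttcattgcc
Tlr2: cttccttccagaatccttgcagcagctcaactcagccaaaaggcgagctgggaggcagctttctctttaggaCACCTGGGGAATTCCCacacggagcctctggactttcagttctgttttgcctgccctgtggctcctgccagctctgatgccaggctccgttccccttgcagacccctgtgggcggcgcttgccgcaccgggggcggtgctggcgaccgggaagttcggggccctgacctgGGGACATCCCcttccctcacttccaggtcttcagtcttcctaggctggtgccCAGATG
Tlr5: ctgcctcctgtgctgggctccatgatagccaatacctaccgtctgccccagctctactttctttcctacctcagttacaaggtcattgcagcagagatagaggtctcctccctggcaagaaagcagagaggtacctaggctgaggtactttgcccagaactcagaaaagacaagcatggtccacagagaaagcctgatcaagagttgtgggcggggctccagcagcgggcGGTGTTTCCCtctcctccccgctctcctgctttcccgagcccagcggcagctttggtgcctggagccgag
From the promoter table, promoters of 6 of the 9 members were searched, and none of *Tlr4*, *Cd14* or *Ly96*. The motifs searched on both strands were a PU.1 core (GAGGAA), a tandem IRF site (GAAA, any 2 bases, GAAA), an ETS-IRF composite site (GGAA, any 2 bases, GAAA), an NF-κB site (GGGA, any 4 bases, CC), an E-box (CANCTG) and a TATA box (TATAAA). *Tlr2* had 2 NF-κB matches, from -172 to -163 and from -8 to 1 counted from the start site as 0, and 2 E-box matches. *Tlr5* had 1 NF-κB match, from -20 to -11. Of all 32851 promoters in the table, 20.7% had an NF-κB match and 51.4% an E-box match. For *Tlr1*, *Tlr6* and *Cd180*, 2 promoters each were listed, and only the 1 nearest the gene start was searched. The promoters shown for *Ly86* and *Cd180* had no match to any of the motifs. No promoter searched for a member matched the tandem IRF site or the ETS-IRF composite site, which 3.44% and 2.72% of all promoters did. Of the other members, *Tlr1* matched the PU.1 core and the E-box, which 28.3% and 51.4% of promoters did, and *Tlr6* matched the TATA box, which 13.6% did. The matches did not overlap, and they are a description of letters only.

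Of the 9 members, 8 were at or above the floor of 3 counts (0.0955 CPM), whereas 55.5% of the protein-coding genes and 31.0% of all genes in the table were. All 9 are protein-coding. At a level above 10 TPM stood 6 of the 9 members and 27.9% of the protein-coding genes. The 9 members together took 0.0608% of all counts, and 63.1% of that went to *Ly86*. The plot of levels by gene shows this spread.

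**Figure D1:**
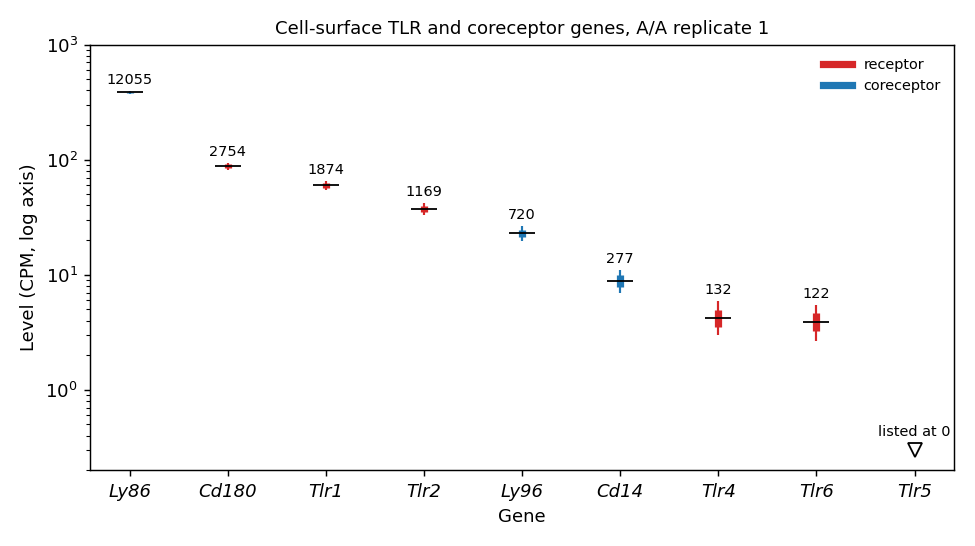
Level of each of the 9 genes in A/A replicate 1 (CPM, log axis), receptors in red and coreceptors in blue. Horizontal ticks are the values, thick bars the Wilson 95% confidence intervals of the recovered counts, thin bars those of the counts divided by 4, and the numbers printed over the bars the recovered counts. *Ly86* stands apart at 12055 counts, *Tlr4* and *Tlr6* overlap, and the open triangle marks *Tlr5*, listed at 0.

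Among the receptors, *Cd180* (ENSMUSG00000021624.9, chromosome 13, 102693558 to 102739629, plus strand of GRCm38), which encodes RP105, had the highest value. It had 2754 counts, or 87.7 CPM (95% CI, 84.5 to 91.0), at percentile 88.4 of the genes with counts. Per length it had 50.6 TPM. Exons of *Mast4* on the opposite strand covered 4.04% of its exon bases.

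*Tlr1* (ENSMUSG00000044827.10, chromosome 5, 64924679 to 64933563, minus strand), the TLR2 partner for triacylated lipopeptides, had 1874 counts, or 59.7 CPM (95% CI, 57.0 to 62.4), at percentile 83.7. *Tlr2* (ENSMUSG00000027995.10, chromosome 3, 83836272 to 83841767, minus strand), the shared chain of the lipopeptide receptors, had 1169 counts, or 37.2 CPM (95% CI, 35.1 to 39.4), at percentile 76.3. Both thus stood well above the middle of the genes with counts, with *Tlr1* the higher. Per length, *Tlr1* had 46.4 TPM and *Tlr2* had 32.1 TPM.

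*Tlr6* (ENSMUSG00000051498.6, chromosome 5, 64952031 to 64960097, minus strand), the TLR2 partner for diacylated lipopeptides, had 122 counts, or 3.88 CPM (95% CI, 3.25 to 4.64), at percentile 44.4. *Tlr4* (ENSMUSG00000039005.13, chromosome 4, 66827584 to 66930284, plus strand), the lipopolysaccharide receptor, had 132 counts, or 4.2 CPM (95% CI, 3.54 to 4.98), at percentile 45.3. These 2 genes overlapped in CPM and stood below the middle of the genes with counts. *Tlr5* (ENSMUSG00000079164.8, chromosome 1, 182954788 to 182976044, plus strand), the flagellin receptor, was listed at 0. None of its 50-base transcript windows occurred in another gene (0 of 4877), so at that length it shares no sequence with other transcripts.

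Of the coreceptors, *Ly86* (ENSMUSG00000021423.6, chromosome 13, 37345208 to 37419036, plus strand), which encodes MD-1, was the highest of all the members. It had 12055 counts, or 384 CPM (95% CI, 377 to 391), at percentile 97.5. *Ly96* (ENSMUSG00000025779.10, chromosome 1, 16688051 to 16709611, plus strand), which encodes MD-2, had 720 counts, or 22.9 CPM (95% CI, 21.3 to 24.7), at percentile 68.3. *Cd14* (ENSMUSG00000051439.6, chromosome 18, 36725074 to 36726736, minus strand) had 277 counts, or 8.82 CPM (95% CI, 7.84 to 9.92), at percentile 54.1. All 3 coreceptor genes thus had counts, and they differed widely from each other.

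Per length the order of the members was *Ly86* (275 TPM), *Ly96* (58.4), *Cd180* (50.6), *Tlr1* (46.4), *Tlr2* (32.1), *Cd14* (13.2), *Tlr6* (2.71) and *Tlr4* (1.97), with *Tlr5* listed at 0. *Ly96* rose from the fifth place in CPM to the second per length, because its exons cover 1021 bases and those of *Cd180* cover 4509. Of the 7 ratios between neighbours in this order, each had an exact binomial 95% interval that left out 1. With the counts divided by 4, 4 of them did. The neighbours that then could not be told apart were *Ly96* and *Cd180* (ratio 1.16, 95% interval 0.975 to 1.36), *Cd180* and *Tlr1* (ratio 1.09, 0.969 to 1.23), and *Tlr6* and *Tlr4* (ratio 1.36, 0.798 to 2.29). The steps from *Ly86* to *Ly96* (4.71, 4.05 to 5.50), from *Tlr1* to *Tlr2* (1.44, 1.24 to 1.68), from *Tlr2* to *Cd14* (2.43, 1.86 to 3.21) and from *Cd14* to *Tlr6* (4.95, 3.18 to 7.87) kept an interval above 1. Between the high *Ly86* and *Cd14* lay 4 genes from 32.1 to 58.4 TPM, of which *Tlr2* was the lowest, and *Tlr6* and *Tlr4* lay below *Cd14*.

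Ratios were also formed within the known complexes. For the RP105 complex, *Ly86* was 5.43 times *Cd180* per length (95% interval, 5.21 to 5.67). The size of this ratio depended on the length used, and it was 17.9 (17.1 to 18.6) per base of coding sequence, since 486 of the 3632 exon bases of *Ly86* are coding. For the lipopolysaccharide receptor, *Ly96* was 29.7 times *Tlr4* (24.6 to 36.0) and *Cd14* was 6.73 times *Tlr4* (5.45 to 8.35). In both complexes, the mRNA of the accessory protein was therefore above that of the receptor. For the lipopeptide receptors, *Tlr1* was 1.44 times *Tlr2* (1.34 to 1.55) and *Tlr6* was 0.0844 times *Tlr2* (0.0695 to 0.102). With the counts divided by 4, the intervals were wider and each of these ratios still had one that left out 1, the nearest to it being that of *Tlr1* to *Tlr2* (1.24 to 1.68). mRNA ratios do not give the ratio of the proteins.

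**Figure D2:**
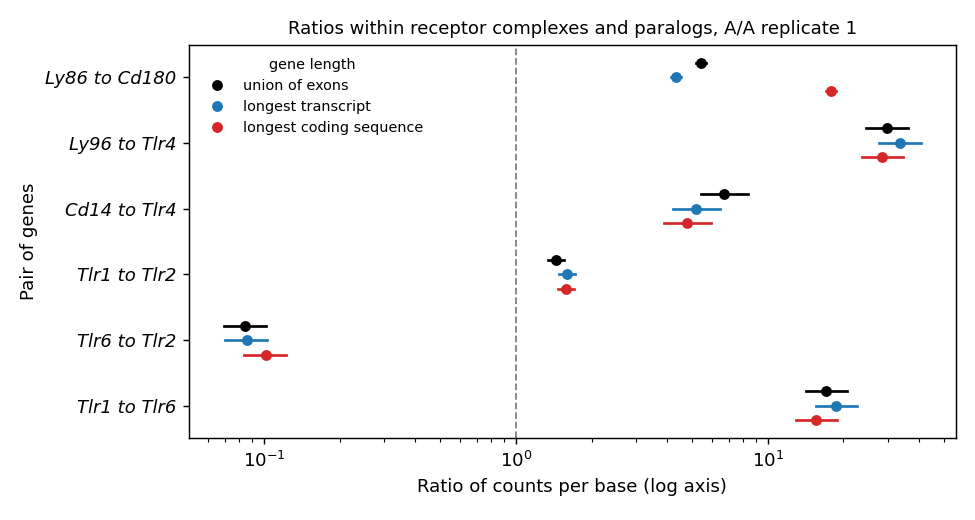
Ratios of counts per base within receptor complexes and between the paralogs *Tlr1* and *Tlr6* (log axis). Points are the ratios and lines their exact binomial 95% intervals, for 3 definitions of gene length, and the dashed line is at 1. Each ratio stayed on its side of 1 with each length, and *Ly86* to *Cd180* moved most, from 5.43 to 17.9.

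*Tlr1* and *Tlr6* lie 18468 bases apart on the same strand of chromosome 5, and *Tlr1* was 17.1 times *Tlr6* per length (95% interval, 14.2 to 20.7). Their coding sequences were identical at 75.6% of 2361 aligned bases. The longest identical run was 229 bases, at chr5:64925537-64925765 in *Tlr1* and chr5:64953828-64954056 in *Tlr6*, within the coding sequence of each. It is shown because a read of 150 bases that lies inside it matches both genes.
Tlr1 and Tlr6: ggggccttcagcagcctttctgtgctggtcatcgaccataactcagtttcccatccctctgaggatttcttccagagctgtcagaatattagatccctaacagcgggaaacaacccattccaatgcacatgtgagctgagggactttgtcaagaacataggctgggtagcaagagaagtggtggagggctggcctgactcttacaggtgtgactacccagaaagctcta
Of the 150-base windows of *Tlr6* transcripts, 3.86% occurred in another gene, and of those of *Tlr1*, 4.30% did. If the counts of *Tlr1* were spread evenly, 80.6 of them would fall in such windows, which is of the same order as the 122 counts of *Tlr6*. How the authors' counting placed such reads was not tested. Of the 50-base windows, *Tlr1* shared 15.4% and *Tlr6* shared 12.3% with other genes. *Cd180* shared 3.03% of its 50-base windows with *Mast4* and *Tlr4* shared 0.216% of its windows with other genes, while *Tlr2*, *Tlr5*, *Cd14*, *Ly96* and *Ly86* shared 0%.

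The surface receptors were then read against the endosomal ones. Per length, *Tlr7*, the receptor for R848 and single-stranded RNA, had 131 TPM (95% CI, 128 to 134), and *Tlr12* had 70.3, *Tlr9* 29.4, *Tlr13* 28.2, *Tlr3* 9.59, *Tlr11* 8.68 and *Tlr8* 3.0. *Tlr7* was therefore 2.59 times *Cd180* (95% interval, 2.47 to 2.70), 2.82 times *Tlr1* (2.68 to 2.97), 4.07 times *Tlr2* (3.82 to 4.34) and 66.5 times *Tlr4* (55.9 to 79.6). *Tlr9*, the other nucleic acid sensor of pDCs, stood lower than *Tlr7* and within the range of the surface receptors. It was 0.634 times *Tlr1* (0.590 to 0.682) and 0.581 times *Cd180* (0.543 to 0.622). Against *Tlr2* it was 0.916 times (0.844 to 0.993), and with the counts divided by 4 the interval of this ratio ran from 0.779 to 1.08. *Tlr9* was 14.9 times *Tlr4* (12.5 to 18.0) and 10.8 times *Tlr6* (9.0 to 13.2). *Tlr8* was 1.53 times *Tlr4* (1.19 to 1.96), with an interval from 0.894 to 2.52 for the counts divided by 4, and per base of coding sequence it was 0.797 times *Tlr4* (0.621 to 1.02). The length used also moved other ratios. Per base of coding sequence *Tlr7* was 1.47 times *Cd180* and 38.8 times *Tlr4*, and *Tlr9* was 0.287 times *Cd180* and 7.57 times *Tlr4*.

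As groups, 5 of 6 surface receptors and 7 of 7 endosomal TLRs were at or above the floor, as were 55.5% of the protein-coding genes. At or above the floor, the median was 6.22 TPM over all genes and 10.2 TPM over protein-coding genes. It was 32.1 TPM for those surface receptors and 28.2 TPM for the endosomal ones. This order of the medians was not stable. With *Tlr5* included at 0, the surface median was 17.4 TPM, and in CPM the medians were 37.2 and 39.3. The sums were 134 TPM for the surface receptors and 280 TPM for the endosomal ones, a ratio of 2.09, and *Tlr7* held 46.7% of the endosomal sum. Without *Cd180*, the sum of the 5 surface TLRs was 83.2 TPM and the ratio was 3.36. The higher endosomal total thus came with *Tlr7* at the top of that group and with *Tlr4*, *Tlr5* and *Tlr6* at the foot of the other, and which group had the higher median depended on the genes and the scale used.

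**Figure D3:**
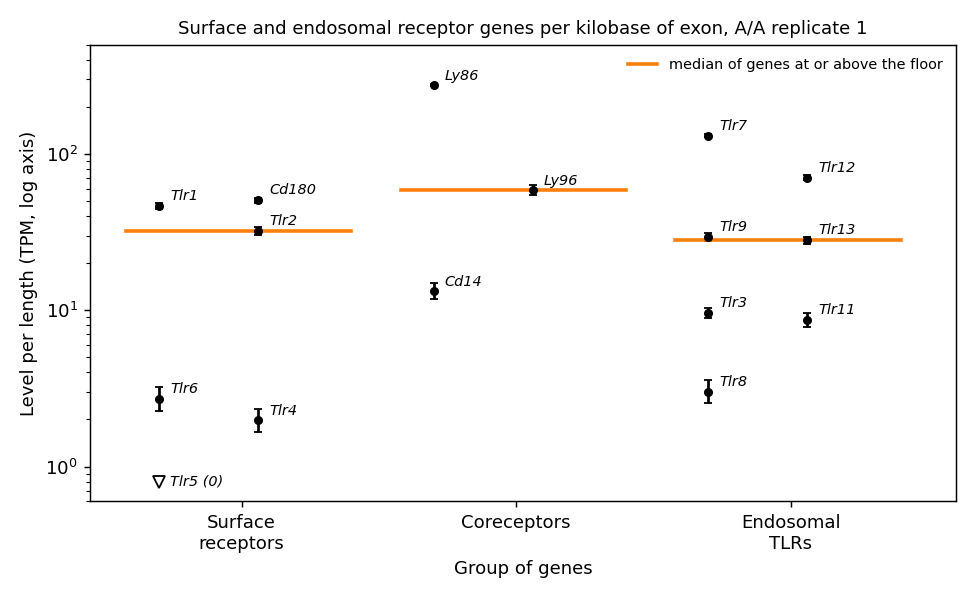
Level per length (TPM, log axis) of the surface receptors, their coreceptors and the endosomal TLRs in A/A replicate 1. Points are genes with Wilson 95% confidence intervals, orange lines are the medians of the genes at or above the floor, and the open triangle is *Tlr5*, listed at 0. The medians of the surface receptors and the endosomal TLRs are 32.1 and 28.2 TPM, while *Tlr7* at 131 TPM is above all of the surface receptors.

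Of 32 other genes of the surface TLR pathway, the endosomal TLRs included, 30 were at or above the floor, against 55.5% of the protein-coding genes. Their median was 24.2 TPM. All 5 genes for chaperones and traffic had counts. *Unc93b1*, which carries nucleic acid-sensing TLRs and TLR5 out of the endoplasmic reticulum, had 1703 TPM, *Hsp90b1* (gp96), the folding chaperone of nearly all TLRs, had 390 TPM, its partner *Cnpy3* had 220 TPM, *Tmed7* had 57.9 TPM and *Cnpy4* had 6.25 TPM. Of these 5, *Cnpy4* was the lowest and the only one below 10 TPM.

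The adaptors differed more. *Myd88*, used by the surface TLRs, had 345 TPM. *Tirap*, the bridging adaptor of TLR2 and TLR4, had 45 counts, or 0.756 TPM (95% CI, 0.565 to 1.01). *Ticam2* (TRAM), which joins TLR4 to TRIF, had 4.6 TPM, *Ticam1* (TRIF) had 36.9 TPM, and *Sarm1* had 0.250 TPM. Of the 5 adaptors, *Myd88* was thus the highest and *Sarm1* and *Tirap* the lowest. *Ticam2* shares 14.5% of its exon bases with *Tmed7* on the same strand. Genes of the opposite strand overlap 11.3% of the exon bases of *Myd88* and 9.84% of those of *Tirap*. How counts in shared bases were assigned is not known, so these values are uncertain, and the shares of bases do not bound the error. *Ticam2* had 322 counts in all and *Tmed7* had 6176.

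Of the genes for ligand handling, *Lbp*, which delivers lipopolysaccharide to CD14 and is made mostly by the liver, was listed at 0. *Cd36*, a coreceptor for diacylated ligands of TLR2 and TLR6, had 20.3 TPM. *Itgb2*, the common chain of the leukocyte integrins, had 163 TPM, while its partner chain *Itgam* had 0.544 TPM. The symbol *Itgam* stands on 2 rows of the table, and 68.7% of its exon bases are shared with the gene of the other row, so this value is uncertain.

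Of 6 genes known as brakes on TLR signalling, 5 were at or above the floor, as were 55.5% of the protein-coding genes. *Nrros* had 361 TPM, *Tollip* 38.3, *Rnf216* 17.6, *Sigirr* 13.0 and *Irak3* 0.203, and *Il1rl1* was listed at 0. The high value belongs to *Nrros*, an endoplasmic reticulum protein that also binds TGF-β. For the signalling genes used by RP105 in B cells, *Vav1* had 236 TPM, *Lyn* 227, *Btk* 17.3 and *Syk* 12.6. The kinase and exchange factor genes of that route were thus present.

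The surface TLRs and coreceptors are also expressed by other cells of the spleen, so markers of those cells are given beside the members. In a bulk sample, fewer cells of a type and less RNA per cell cannot be told apart. Markers of the labelled cell type are given first. All 11 pDC markers were at or above the floor, as were 55.5% of the protein-coding genes. The median of these markers was 251 TPM (*Cox6a2*), from 34.0 TPM for *Tcf4* to 6001 TPM for *Ly6d*, and none was listed at 0. The low value of *Tcf4* was taken over 27382 exon bases. In CPM *Tcf4* had 358, and *Klk1* was the lowest with 46.2. *Siglech* and *Bst2* are the genes of the sort markers SiglecH and PDCA1, so they were no independent check of the cell type.

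*Cd180* and *Ly86* are well known from B cells. Of 9 B cell markers, 6 were at or above the floor, against 55.5% of the protein-coding genes. Their median was 2.72 TPM. The list summed to 88.0 TPM, of which *Blnk*, an adaptor that pDCs also express, had 74.4. *Pax5*, *Fcer2a* and *Cr2* were listed at 0. The summed level of the other 8 markers was 13.5 TPM, with *Cd79b* the highest at 6.71 TPM. *Cd180* was 7.53 times and *Ly86* 40.9 times *Cd79b* per length. *Cd79b* was in turn above *Tlr4* and *Tlr6*, and the part of B cells in the levels of the members was not tested.

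*Tlr2*, *Tlr4*, *Cd14* and *Ly96* are known from monocytes and macrophages. Of 12 markers of these cells, 10 were at or above the floor, against 55.5% of the protein-coding genes. Their median was 55.6 TPM, and the list summed to 2515 TPM. *Ly6c2*, also a known pDC gene, had 1130 TPM, *Cd68* 616, *Lyz2* 410 and *Fcgr1* 181. *C1qb* had 62.3 TPM, *Ccr2* 49.0, *C1qa* 23.8, *Csf1r* 22.1, *Adgre1* 20.1 and *Mertk* 1.03, and *Vcan* and *Cd163* were listed at 0. *Cd14* at 13.2 TPM and *Tlr4* at 1.97 TPM were below 9 of these 12 markers. With a single library, no value shows these markers moving with the members, and the part of such cells in the levels of *Tlr2*, *Tlr4*, *Cd14* and *Ly96* was not tested.

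Of 10 conventional DC markers, 9 were at or above the floor, against 55.5% of the protein-coding genes. Their median was 24.1 TPM, and the list summed to 528 TPM. *Fscn1*, a gene of activated DCs, had 370 TPM, *Clec9a* 58.4, *Sirpa* 35.8, *Zbtb46* 32.3 and *Cadm1* 24.1. *Itgae* had 4.37 TPM, *Clec10a* 2.11, *Xcr1* 1.00 and *Mgl2* 0.514, and *Cd209a* was listed at 0. Of 10 neutrophil markers, 6 were at or above the floor, against 55.5% of the protein-coding genes, and the list summed to 146 TPM. *S100a8* had 55.0 TPM, *S100a9* 47.9, *Ngp* 20.1, *Csf3r* 15.4, *Camp* 6.34 and *Cxcr2* 0.978. *Ly6g*, *Mpo*, *Elane* and *Retnlg* were listed at 0. Of 6 T cell markers, *Cd4* (12.5 TPM) and *Cd28* (14.7 TPM) had counts, while *Bcl11b* and the CD3 chain genes *Cd3g*, *Cd3d* and *Cd3e* were at 0. The part of these cells in the levels of the members was not tested.

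**Figure D4:**
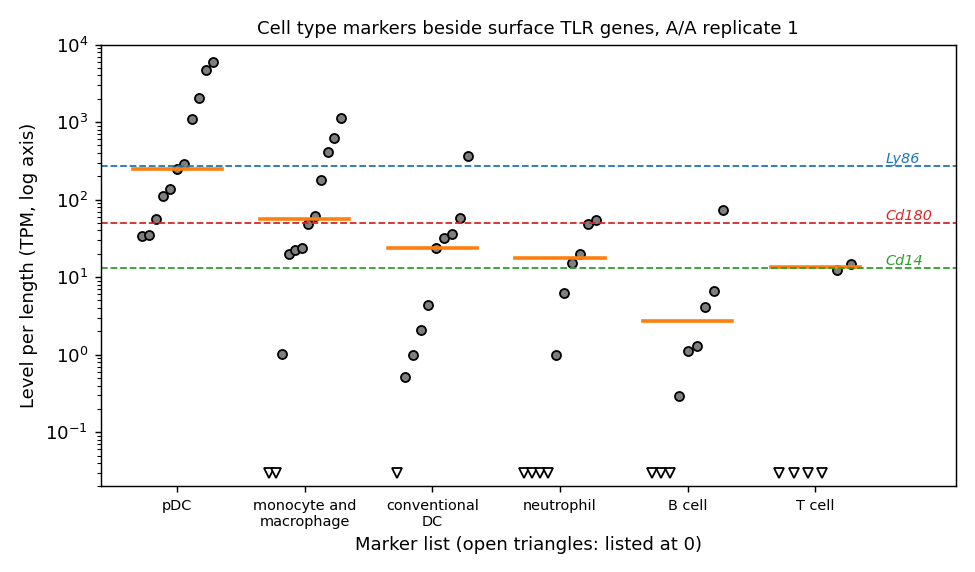
Level per length (TPM, log axis) of the markers of 6 cell types in A/A replicate 1. Points are genes, open triangles genes listed at 0, orange lines medians of the genes at or above the floor, and dashed lines the levels of *Ly86*, *Cd180* and *Cd14*. *Ly86* at 275 TPM is above all B cell markers and close to the pDC median of 251 TPM, and *Cd14* at 13.2 TPM is below 9 of the 12 monocyte and macrophage markers.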

How the data were processed

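The 9 samples were mRNA libraries of sorted pDCs treated with R848, read as 150-base pairs, and 1 was analysed here. The submitters' processing notes name HISAT2, StringTie, mm8 and mm10 without a role, and the paper's methods name DESeq2 for the comparison of genotypes. The annotation and the use of strand are not given in the sources used here. The authors deposited 1 normalized signal per gene, with coordinates of GRCm38. Each nonzero value (100%) was an integer multiple of a step of 1.19, within 0.01 of a count, so counts were recovered by division by that step, giving 31408298 counts over 17664 genes. The deposited length is the genomic span in 100% of genes and was not used.

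Gene IDs were matched to GENCODE M21 (99.7%, of which 95.2% had identical coordinates), which gave exon, transcript and coding lengths. CPM has Wilson 95% confidence intervals, ratios have exact binomial intervals, and the floor was 3 counts. Overlap of exons with other genes was not corrected for, and the Results give it for some genes only. For *Hsp90b1* it was 5.38% of exon bases on the same strand and 10.3% on the opposite strand. Same-strand overlap was 9.48% for *Tmed7* and 5.59% for *Clec9a*. Opposite-strand overlap was 15.1% for *Csf1r*, 11.1% for *Ncf1* and 10.3% for *Cox6a2*. Depth was that of this single library, and since no molecular identifiers were used, PCR copies may be counted more than once. Recovery was tried on 3 simulated libraries of 52550 genes, and 100% of counts were recovered. These were whole counts divided by a known factor, so the trial checks the division only. It cannot show that 1 step of the deposited values is 1 read. Python 3.11.15, numpy 2.4.6, scipy 1.17.1, pandas 2.3.3 and matplotlib 3.10.9 were used.

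The members and the gene lists were chosen with earlier results of these data known. The genes named are the 9 members, the pathway and marker lists, the nearest protein-coding neighbours that do not overlap a member, *Ncf1*, *Xist* and *Ddx3y*. In lists of over 10 genes the rule named the highest, the lowest and the median gene. The other monocyte and macrophage markers and the pDC markers *Siglech*, *Bst2* and *Klk1* were named after their values were seen. The value of 1 list gene is not reported here. Alternatives were other gene lengths, percentiles over other genes, a floor of 10 counts, a total without the 10 highest genes, a pseudocount of 0.1 in place of 1 and, added after the data were seen, counts divided by 4, list sums, list medians in CPM, and lists without *Cd180*. The motifs and the shared windows were also chosen after the data were seen.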

Additional observations from a re-analysis of the deposited data

How the results depend on the processing

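No paired analysis was possible because only A/A replicate 1 was used, and for the same reason no replicate could be left out. The order of the members per length was the same for all 9 genes with the longest transcript and for 7 of 9 with the coding sequence, which exchanged *Tlr4* and *Tlr6*. In CPM, without a length correction, 3 of 9 kept their place. With counts divided by 4, chosen after the data were seen, 4 of 7 neighbours had an interval that left out 1. The log2 ratio of the surface to the endosomal median was 0.19. It was 0.13 with the longest transcript and 0.32 with the coding sequence, and it changed sign to -0.69 with genes listed at 0 included, to -0.69 without *Cd180*, to -0.08 in CPM and to -1.06 for the sums. *Ly86* to *Cd180* was 4.32 with the longest transcript and 17.9 with the coding sequence, *Cd14* to *Tlr4* 5.21 and 4.79, and *Tlr1* to *Tlr2* 1.60 and 1.58. The other 3 ratios stayed within their intervals. The median CPM of the 8 members with counts was 30.1, and 33.3 without the 10 highest genes, which raises each level by construction. A floor of 10 counts left 8 members. Percentiles over all genes rose and those over genes with at least 10 counts fell for all 8 members, by construction, by at most 36.9 and 12.5 points (*Tlr6*). A pseudocount of 0.1 lowers each log2 level by construction. Depth limited *Tlr4* and *Tlr6*, with 132 and 122 counts.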

Other observations

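The nearest protein-coding neighbours of the members on their chromosomes are given here with their levels per length, without a test. Genes that overlap a member were left out. *Ly86*, the highest member, lies between *F13a1*, listed at 0, and *Rreb1*, with 2.63 TPM. *Tlr2* lies between *Sfrp2*, listed at 0, and *Tmem131l*, with 50.6 TPM. *Tlr5*, listed at 0, lies between *Susd4*, also listed at 0, and *Disp1*, with 4.33 TPM. *Ly96* lies 9776 bases from *Tmem70*, with 98.7 TPM, and on its other side has *Jph1*, listed at 0. *Cd14*, at 13.2 TPM, lies 8332 bases from *Tmco6*, with 10.6 TPM, and on its other side has *E230025N22Rik*, listed at 0. *Tlr1*, at 46.4 TPM, lies between *Klf3*, with 13.9 TPM, and *Tlr6*, and *Tlr6* lies 9974 bases from *Fam114a1*, with 3.34 TPM. *Tlr4* has *Astn2* and *Brinp1* as neighbours, both listed at 0. For *Cd180*, these were *Pik3r1*, 925341 bases away with 26.1 TPM, and *Srek1*, 999719 bases away with 8.05 TPM. *Mast4*, whose exons overlap those of *Cd180* on the opposite strand, was left out.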
